A study of Mus musculus with 12 samples.

Results

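The genes described here make, take up, store or move cholesterol in the mouse testis. They were chosen by name, from the pathway, with earlier results of these data known. Their number is 31 of the 24516 genes with a symbol in the transcript table. They cover the steps from acetyl-CoA to cholesterol, the proteins that sense sterols, and the proteins that import, esterify, export or carry cholesterol. A gene's value was the sum of its transcripts that matched, lay within, shared a splice junction with or overlapped a known transcript on the same strand. RNA was taken from whole testes of wild-type C57BL/6 male mice, with no treatment, at 3, 6, 12 or 18 months of age (3M, 6M, 12M and 18M), and ribosomal RNA was removed before sequencing. Each age had 3 libraries, 12 in all. The study treats these as biological replicates, and could not say whether mice of an age shared a litter.

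Cholesterol is built from acetyl-CoA through mevalonate, farnesyl diphosphate, squalene and lanosterol. When membranes are poor in sterol, SCAP carries the SREBP transcription factors to the Golgi, where proteases release them to switch on the synthesis and uptake genes, and when sterol is plentiful the INSIG proteins hold SCAP in the endoplasmic reticulum. In the testis, Leydig cells turn cholesterol into testosterone, Sertoli cells take up lipid from dying germ cells, and germ cells themselves make sterol intermediates that act in meiosis.

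The libraries held 50924104 to 71803379 estimated reads, and 94.28 to 95.05% of these fell in genes with a symbol. Across genes, log2 levels of libraries of the same age correlated with Pearson's r between 0.994 and 0.996, a description of similarity only. The spermatocyte and spermatid markers were abundant in every library, at 2995 to 3205 and 15780 to 23030 normalised CPM, a count scaled to library size, summed over 7 and 9 genes. The summed level of 9 Leydig cell markers was 900.4 to 1439 CPM in the libraries of 3M and 6M and 617.5 to 842.8 CPM in those of 12M and 18M, with no overlap. This sum is not weighted, and Insl3 had by far the highest level of the 9, as given further on.

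The levels of the 31 genes differed widely and did not follow the order of the pathway. In FPKM, a level scaled by transcript length and library size, 10 genes had a mean of 10 or more over the 12 libraries, 17 lay between 1 and 10, and 4 lay below 1. Lipe, hormone-sensitive lipase, which releases cholesterol and fatty acids from their esters, was the highest at a mean of 119 FPKM (114 to 125), above 97.3% of all genes. Fdft1, squalene synthase, the enzyme that commits farnesyl diphosphate to sterols, followed at 109 FPKM (104 to 111). The ranges of these 2 genes did not overlap.

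Among the synthesis genes, those that make and use farnesyl diphosphate and squalene stood highest. Fdps, farnesyl diphosphate synthase, had a mean of 46.4 FPKM, and Sqle, squalene epoxidase, 36.2 FPKM. Cyp51, the lanosterol demethylase, whose product is known as a meiosis-activating sterol, had 22.6 FPKM. Hmgcs1, HMG-CoA synthase, had 15.4 FPKM and Idi1, an isomerase of the isoprenoid units, 13.5 FPKM. Pmvk, Mvk and Mvd, which phosphorylate and decarboxylate mevalonate, were lower, at 9.52, 4.01 and 1.97 FPKM. Lss, which closes squalene epoxide into lanosterol, had 3.03 FPKM, well below Sqle just before it. The later enzymes Dhcr7, Msmo1 and Sc5d lay between 4.23 and 4.76 FPKM, Hsd17b7 had 0.587 FPKM and Tm7sf2 was listed at 0.0344 FPKM. The synthesis genes upstream of lanosterol thus included the high members, while Dhcr7, Msmo1, Sc5d and Hsd17b7, which act after Cyp51, were below 5 FPKM.

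Among the sensing genes, Insig2, a retention protein for SCAP, was the highest at 19.95 FPKM, against 4.44 FPKM for Insig1. Srebf2, the SREBP that mainly drives cholesterol genes, had 7.96 FPKM, Scap 4.997 FPKM and Srebf1, which mainly drives fatty acid genes, 2.98 FPKM. Scarb1, the HDL receptor through which Leydig and Sertoli cells take up cholesterol esters, had 28.8 FPKM with a wide range of 20.5 to 41.6. Soat1, which esterifies cholesterol, had 6.70 FPKM, and Nceh1, an ester hydrolase, 0.467 FPKM. Npc2, a soluble sterol carrier of the lysosome, had 10.4 FPKM and its membrane partner Npc1 0.916 FPKM. The last exon of Npc2 makes up 2654 of the 3262 bases of its main transcript. That exon was covered at 5.18 to 67.0 reads per base, against 225 to 310 on exons 2 and 3. The FPKM of Npc2 averages over these and does not show the level of its inner exons. Stard3, a sterol transporter of late endosomes, had 5.43 FPKM, Tspo, an outer mitochondrial membrane protein, 3.997 FPKM, Abca1, the main exporter of cholesterol to apolipoprotein, 3.59 FPKM, and Stard4, a cytosolic sterol carrier, 1.07 FPKM.

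**Figure D1:**
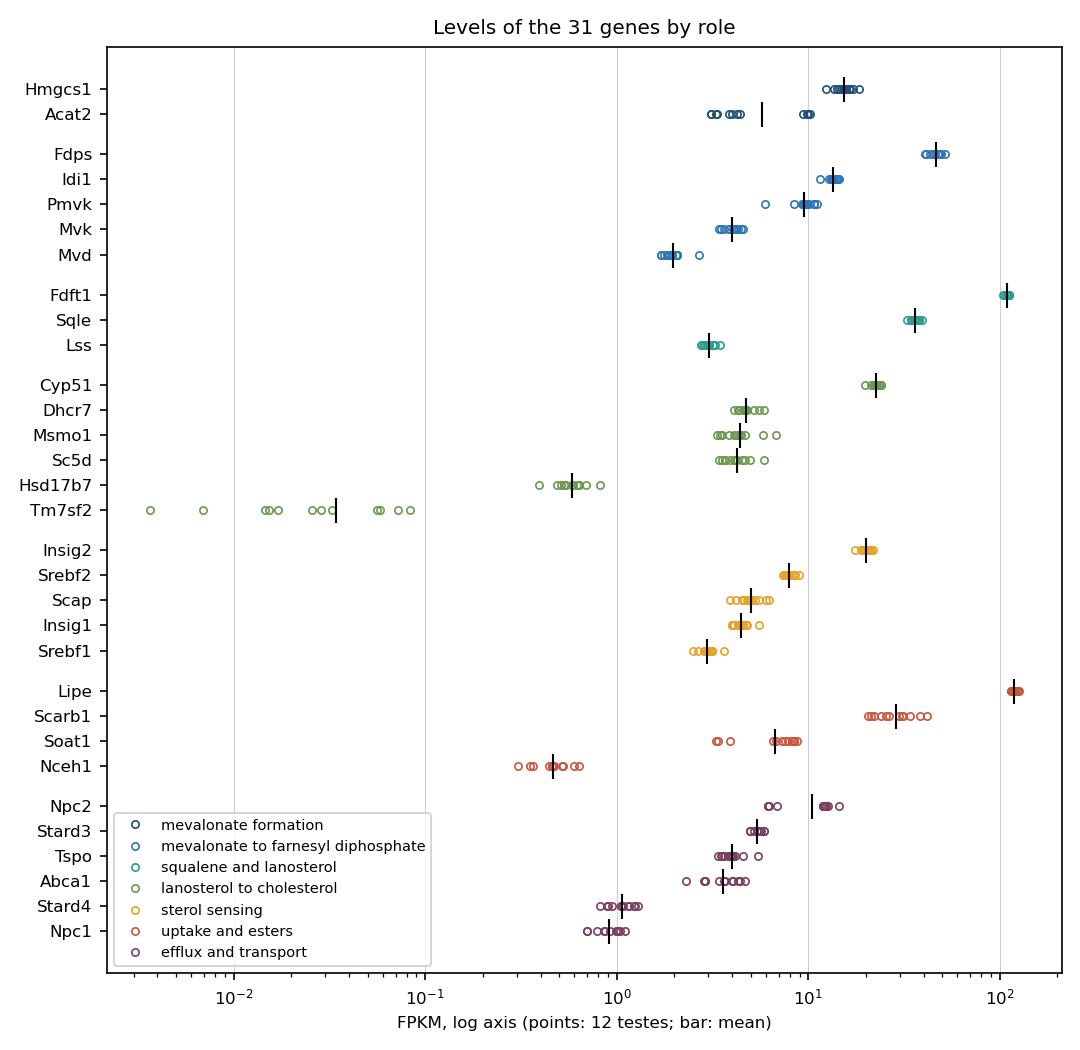
FPKM of each of the 31 genes in the 12 testis libraries on a log axis, grouped by role, with open points for libraries and a black bar for the mean. Lipe and Fdft1 stand above 100 FPKM in all 12 libraries, and Acat2, Npc2 and Soat1 each show 2 separate clusters of points.

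The reads of Lipe came almost wholly from a transcript with a distant first exon. This assembled transcript, at chr7:25379857-25398759 on the minus strand of mm10, held 98.4% of the gene's reads (98.2 to 98.7% per library). Its introns are those of the GENCODE transcript Lipe-204, whose start codon lies in that first exon, at chr7:25398514-25398516, with 306 whole codons of the first exon before the junction. The annotated coding sequence of Lipe-204 has 1072 codons, against 802 in Lipe-201 and 759 in Lipe-202. The form with the next first exon, Lipe-201, held 1.48% of the reads and the shortest, Lipe-202, 0.097%. All of them share the second exon of 536 bases. The junctions that separate Lipe-204 from Lipe-201 are given here from the GENCODE vM21 transcripts, 5′ to 3′ along the transcript, with the last 30 bases of exon 1 in capitals (chr7:25397598-25397627 for Lipe-204 and chr7:25395501-25395530 for Lipe-201) and the first 30 bases of exon 2 in lower case (chr7:25388624-25388653 for both). They are shown because the capital letters are what tells the testis form from the other.

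Lipe-204: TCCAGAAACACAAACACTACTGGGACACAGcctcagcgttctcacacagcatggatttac
Lipe-201: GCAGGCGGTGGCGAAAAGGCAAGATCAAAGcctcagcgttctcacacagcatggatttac

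Lipe was also among the steadiest members. Its level ran from 446 to 507 CPM over all 12 libraries, and its fitted level at 18M was 99.0% of that at 3M (95% interval 93.2 to 105). An antisense-strand gene, 4732471J01Rik, shares up to 1053 exonic bases with it, and the kit does not mark strand, so reads of either strand cannot be told apart there.

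**Figure D2:**
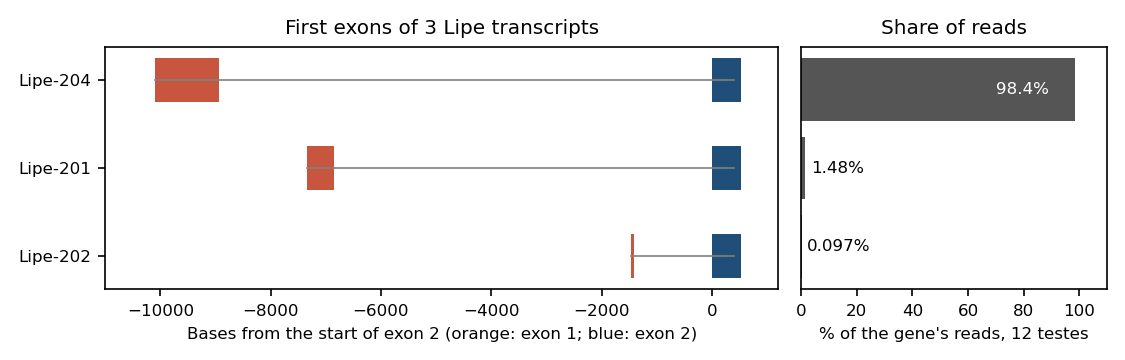
Left, position of the first exon and the shared second exon of 3 Lipe transcripts, in bases from the start of exon 2. Right, the percent of the gene's reads assigned to each over the 12 libraries, which was 98.4% for Lipe-204.

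Other members showed a departure from their RefSeq model as well. The rule took 85 transcripts, of which 46 matched a RefSeq transcript and 39 were assembled forms sharing a splice junction with one. In 26 members the most-read transcript was a RefSeq one and in 5 an assembled one. In Srebf2, 75.7% of the reads were assigned to an assembled form with a first exon of 5062 bases at chr15:82143609-82148670, which shares up to 1120 exonic bases with the same-strand gene Ccdc134. The mean coverage of that first exon, 31.5 reads per base, was above the median of 16.8 over the 17 inner exons. Scarb1 was split among 14 transcripts. The 4 that began at the annotated start received between 2.68 and 76.2% of its reads depending on the library, with a median of 6.09%.

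Tm7sf2, a sterol reductase, was the member with almost no reads under its own name, 42 over the 12 libraries, at 0.0223 to 0.509 reads per base. All 1479 of its exonic bases also lay in 5 assembled transcripts filed under its same-strand neighbour Vps51, where they were covered at 24.1 to 41.4 reads per base. Its listed level therefore does not show how much Tm7sf2 RNA the testis held, and it was not tested.

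The main question was whether the cholesterol genes changed as the testis aged. None of the 30 tested members passed the adjusted p of 0.05 for a straight-line change of log2 level with age over the 12 libraries (edgeR's quasi-likelihood test with Benjamini-Hochberg adjustment over all genes), where 0.414% of the 18367 genes tested did. The estimates were below 0 in 25 members and above 0 in 5, with a median of -0.00938 log2 per month against -0.000384 over all genes. At an unadjusted p of 0.05 there were 8 of 30 members, all lower with age, against 9.6% of all genes in that direction. No member was higher at that p, against 7.87% of all genes. DESeq2 called 3 members, Abca1, Scap and Sc5d, all lower, and 3.26% of the genes it tested, and limma-trend on log2(FPKM + 1) called 0.

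The 8 members were Abca1, Scap, Sc5d, Stard4, Dhcr7, Msmo1, Nceh1 and Insig1. By role they were 2 of 6 efflux and transport genes, 3 of 5 tested genes from lanosterol to cholesterol, 2 of 5 sensing genes and 1 of 4 uptake and ester genes. None of the 7 tested genes that lead from acetyl-CoA to farnesyl diphosphate and none of the 3 from squalene to lanosterol was among them. In sizes, 28 of the 30 members had a 95% interval for the 18M level that lay within 2-fold of the 3M level either way, the exceptions being Acat2 and Npc2, and 21 had one within 1.5-fold.

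Abca1 gave the steepest of these slopes. Its levels were 46.6, 49.0 and 42.8 CPM at 3M, 46.4, 50.9 and 52.5 CPM at 6M, 33.2, 39.7 and 33.9 CPM at 12M, and 42.0, 33.8 and 27.0 CPM at 18M. Every library of 3M and 6M lay above every library of 12M and 18M. The slope was -0.0366 ± 0.0091 log2 per month (SE), a fitted level at 18M of 68.4% of that at 3M (95% interval 55.8 to 83.8), with an adjusted p of 0.103 in edgeR. Without the library 18M-1, the highest of its age, the adjusted p was 0.0194.

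Scap, the escort that lets the SREBPs leave the endoplasmic reticulum, gave the smallest adjusted p. It measured 26.2, 28.4 and 25.1 CPM at 3M, 23.6, 24.0 and 29.0 CPM at 6M, 22.0, 23.4 and 21.6 CPM at 12M, and 22.7, 19.98 and 18.8 CPM at 18M. The younger and the older ages again did not overlap. Its fitted level at 18M was 76.2% of that at 3M (67.5 to 86.1), with a slope of -0.0261 ± 0.0054 (SE) and an adjusted p of 0.0641 in edgeR, which became 0.0221 without 18M-1.

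Of the late synthesis enzymes, Sc5d, the lathosterol desaturase, ran at 13.0, 14.996 and 10.9 CPM at 3M, 12.5, 11.6 and 10.6 CPM at 6M, 10.7, 9.44 and 9.77 CPM at 12M and 9.48, 8.92 and 11.1 CPM at 18M. The 3M and 18M libraries overlapped, since 18M-3 was above 3M-3. The fitted level at 18M was 75.7% of that at 3M (64.0 to 89.5) and the edgeR adjusted p was 0.129. Dhcr7, which makes the last double-bond reduction to cholesterol, averaged 16.5 ± 1.56 CPM at 3M and 14.1 ± 0.83 CPM at 18M (SD, n = 3 libraries each), with a fitted level of 84.6% (74.4 to 96.1).

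Msmo1, a C4-methyl sterol oxidase, was the third member with a steep fall in its estimate. It measured 9.55, 11.7 and 8.70 CPM at 3M, 9.17, 8.85 and 13.6 CPM at 6M, 7.31, 8.48 and 7.17 CPM at 12M, and 9.09, 8.01 and 6.96 CPM at 18M. The library 6M-3 was well above the rest, and the ages overlapped. The slope was -0.0286 ± 0.0112 (SE) with an adjusted p of 0.219 in edgeR.

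Of the rest, Stard4 had a fitted 18M level of 77.7% (65.3 to 92.4), Nceh1 of 76.0% (58.0 to 99.4) and Insig1 of 87.6% (76.8 to 99.9). Nceh1 rested on few reads, at 1.54 to 3.12 CPM.

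**Figure D3:**
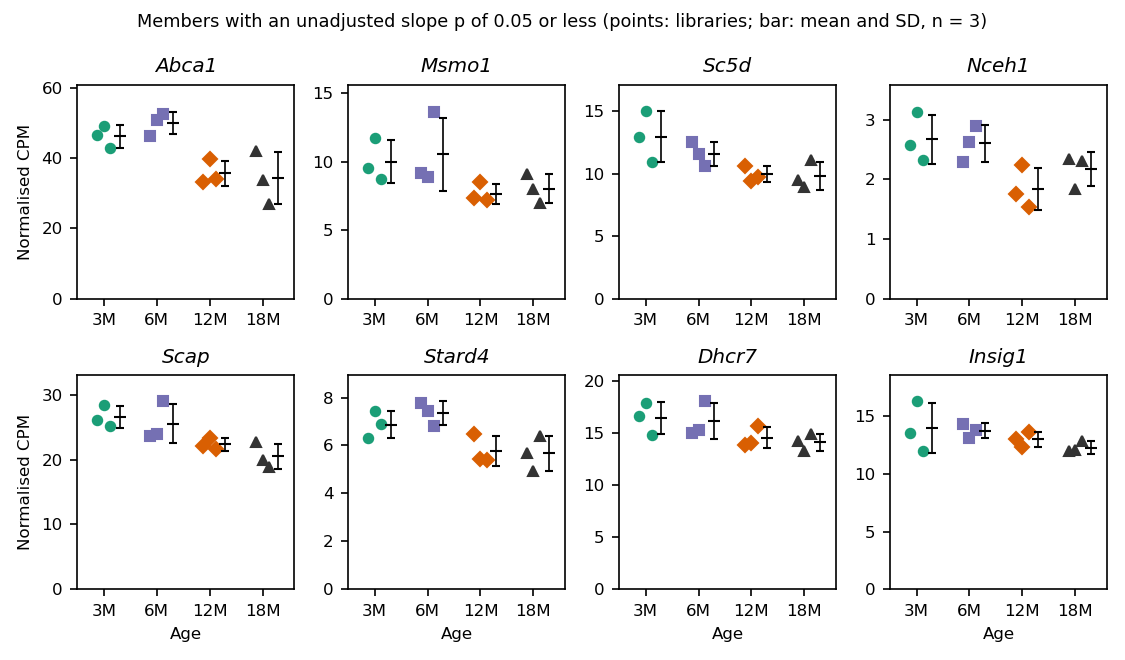
Normalised CPM by age of the 8 members with an unadjusted slope p of 0.05 or less, all with the axis from 0, with a point per library and a bar for the mean and SD of 3 libraries. In Abca1 and Scap every 3M and 6M point lies above every 12M and 18M point, and in the other 6 panels the ages overlap.

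For most early and middle synthesis genes the fitted change was small and its interval narrow, the exception being Acat2, described further on. Hmgcs1, whose enzyme makes HMG-CoA on the way to mevalonate, measured 69.4, 69.3 and 64.5 CPM at 3M, 67.4, 68.9 and 73.0 CPM at 6M, 69.6, 69.1 and 64.3 CPM at 12M and 72.9, 70.2 and 66.2 CPM at 18M, with all ages overlapping. Its fitted 18M level was 101% (93.8 to 109), with an adjusted p of 0.879 in edgeR.

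Fdft1 measured 452, 428 and 461 CPM at 3M, 453, 451 and 441 CPM at 6M, 462, 467 and 440 CPM at 12M and 448, 467 and 470 CPM at 18M. The ages overlapped and the fitted 18M level was 103% (98.0 to 109, adjusted p = 0.514 in edgeR). An opposite-strand neighbour, Ctsb, shares 773 exonic bases with it.

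Cyp51 had the largest positive estimate. Its levels were 114, 107 and 97.2 CPM at 3M, 118, 104 and 109 CPM at 6M, 117, 109 and 112 CPM at 12M, and 111, 119 and 117 CPM at 18M. The 3M and 18M libraries overlapped, through 3M-1 and 18M-1. The fitted 18M level was 108% of that at 3M (98.8 to 118), with an adjusted p of 0.351 in edgeR, and its lower 95% bound lay above the upper bounds of Abca1, Scap, Sc5d, Dhcr7, Msmo1 and Stard4. The difference between genes was not tested. Sqle, Fdps, Pmvk, Idi1, Lss, Stard3 and Srebf2 had fitted 18M levels between 95.04 and 101%, and Srebf1, Mvk, Mvd, Npc1, Insig2 and Tspo between 88.6 and 93.2%, each with an interval that held 100%. Hsd17b7, a sterol ketone reductase, had a fitted 18M level of 79.4% (62.2 to 101) and Scarb1 of 96.0% (75.5 to 122).

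**Figure D4:**
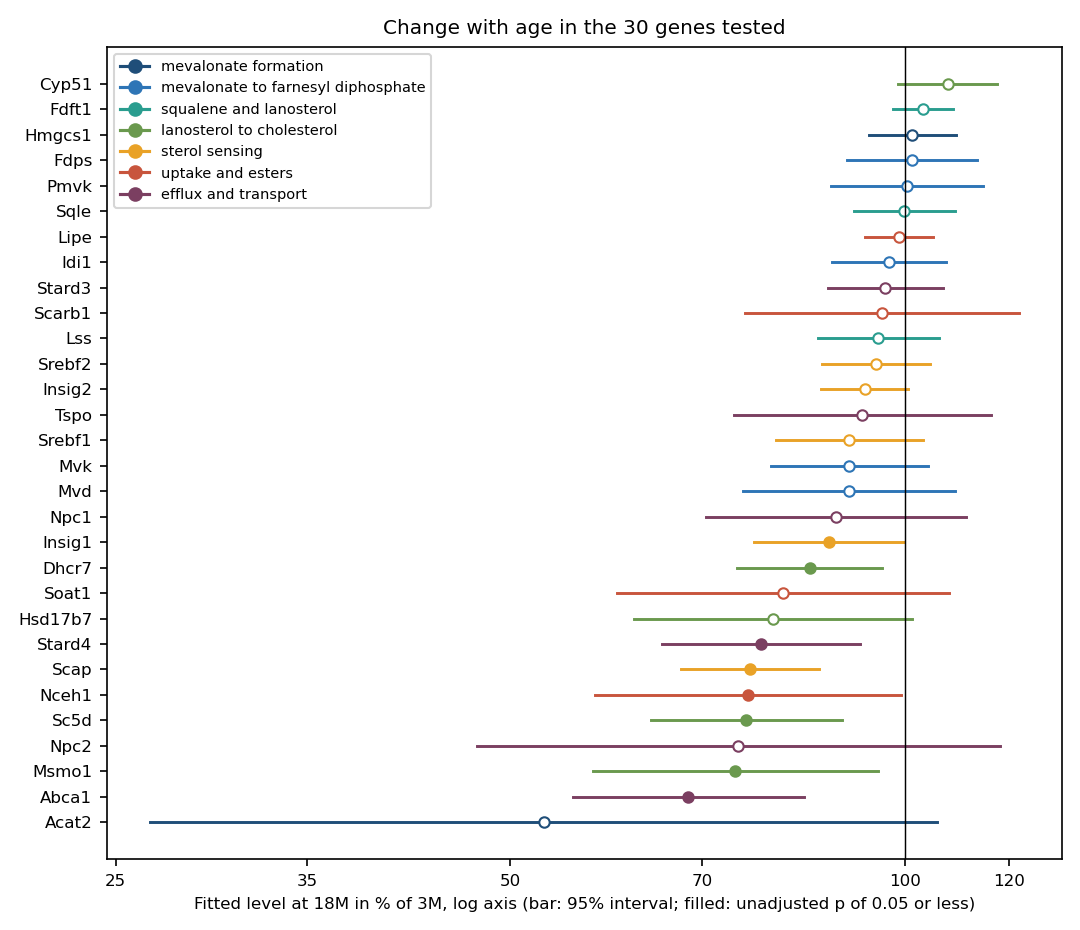
Fitted level at 18M in percent of that at 3M, on a log axis, from the slope over 12 libraries for the 30 tested members, coloured by role, with 95% intervals. Filled points mark an unadjusted p of 0.05 or less, and all 8 of them lie left of 100%.

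In some members the youngest and oldest libraries separated completely. In 5 of 30 members, Abca1, Scap, Srebf1, Srebf2 and Insig2, all 18M libraries lay below all 3M libraries, where 10.7% of all genes did so. In none did they lie above, against 9.62%. All 6 libraries of 3M and 6M lay above all 6 of 12M and 18M in 3 members, Abca1, Scap and Insig2, against 1.3% of all genes, and below them in 0, against 1.06%. For Insig2 this separation went with a small difference, from 62.7 ± 1.83 CPM at 3M to 59.5 ± 0.855 CPM at 18M (SD, n = 3 libraries each).

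Between single ages no member passed the adjusted p of 0.05 in edgeR. A test for any difference among the 4 ages called 0 members, against 0.0917% of all genes, with 6 members at an unadjusted p of 0.05 (10.3% of all genes) and 2 by DESeq2, Abca1 and Scap (2.30% of its genes). For 3M against 18M the count was 0 (0.0662% of all genes), with 4 members lower at the unadjusted p (7.25%) and Scap called by DESeq2 (1.65%). For 3M against 6M it was 0 (0.0497%), with 0 at the unadjusted p (3.96%) and 0 by DESeq2. For 6M against 12M it was 0 (0.0606%), with Abca1, Msmo1, Nceh1 and Stard4 lower at the unadjusted p (4.58%) and Abca1 called by DESeq2 (0.553%). For 12M against 18M it was 0 (0.0275%), with Fdps higher at the unadjusted p (1.65%) and 0 by DESeq2. limma-trend called 0 in all of these. For Abca1 the step from 6M to 12M was estimated at -0.48 ± 0.09 log2 (SE), against 0.12 ± 0.07 from 3M to 6M and -0.05 ± 0.16 from 12M to 18M, and the difference between steps was not tested.

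Markers of Leydig cells were also lower at the older ages. In whole testis, fewer cells of a type and less RNA per cell cannot be told apart. All 9 Leydig markers were tested, and Hsd3b1 alone was not lower at the unadjusted p, with a fitted 18M level of 103% (74.6 to 143). The other 8 were lower at that p, and 3 of them were called in edgeR. Those were Cyp17a1 and Cyp11a1, enzymes of steroid synthesis, and Lhcgr, the luteinizing hormone receptor, with fitted 18M levels of 36.3, 32.8 and 37.2% of 3M and adjusted p-values of 2.8e-05, 0.0019 and 0.033. Insl3 had a mean of 841 FPKM, against 52.9 FPKM for Cyp17a1, the next highest of the 9. It was not called, with a fitted 18M level of 71.4% (53.0 to 96.1) and an adjusted p of 0.238 in edgeR. No Leydig marker was at 0, the least read being Lhcgr with 1444 reads in all. The library 6M-3 was the highest of the 12 for Abca1, Scap, Msmo1 and Dhcr7. It also had the highest summed markers of Leydig cells (1439 CPM), Sertoli cells (1318 CPM, against 1014 to 1078 elsewhere), peritubular cells (135.0 CPM), macrophages (66.8 CPM) and spermatogonia (121.9 CPM), and the lowest of spermatids (15780 CPM). The Sertoli sum, also not weighted, is led by Clu, at a mean of 376 FPKM against 36.6 FPKM for Amhr2, the next. The endothelial sum of 6M-3 (13.0 CPM) was below that of 6M-1 (15.5 CPM). The library 18M-1 had the highest Abca1 and Scap of its age. Its sums of Leydig (842.8 CPM), Sertoli (1078 CPM), peritubular (121.8 CPM), macrophage (57.4 CPM) and endothelial (14.0 CPM) markers were also the highest of that age. The spermatogonial (106.6 CPM) and spermatid (17610 CPM) sums of 18M-1 were the lowest of its age. The part of RNA from these cells in the member results was not tested. Of the other lists, none of 8 Sertoli, 6 peritubular and 4 tested blood markers was higher or lower at the unadjusted p. Higher at that p were 4 of 9 spermatid and 2 of 7 spermatocyte markers, against 7.87% of all genes. Lower were 1 of 7 macrophage, 2 of 5 endothelial, 1 of 5 adipocyte and 1 of 7 spermatogonial markers, against 9.6% of all genes.

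A wider list of 50 other cholesterol genes (chosen with earlier results of these data known) had 44 tested members. Of these, 1 was called, Mbtps1, the site-1 protease that makes the first cut in the SREBPs, against 0.414% of all genes, and 12 passed the unadjusted p, 11 lower and 1 higher, against 9.6 and 7.87% of all genes. Mbtps1 measured 44.2, 45.5 and 45.2 CPM at 3M, 45.0, 41.5 and 43.6 CPM at 6M, 38.4, 40.7 and 36.6 CPM at 12M and 39.4, 37.6 and 34.9 CPM at 18M, with the younger ages all above the older. Its fitted 18M level was 81.9% of that at 3M (75.4 to 88.8) and its edgeR adjusted p 0.0418. This call was lost in 15 of the 22 other settings tried, with adjusted p-values up to 0.180. Some further genes are named here after their values were seen. Of those lower at the unadjusted p, Star, which brings cholesterol into mitochondria and is also a Leydig marker, had a fitted 18M level of 54.8%. Nsdhl, an enzyme of the late synthesis steps, had 80.2%. The single gene higher at that p was Stard6, a sterol carrier, at 110%.

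In Acat2, Npc2 and Soat1 the libraries fell into 2 separate levels that crossed the ages, and in each the difference lay in the last, 3′ terminal exon. These 3 genes were picked out after their values were seen. Acat2, the cytosolic acetoacetyl-CoA thiolase, measured 9.21, 10.2 and 24.1 CPM at 3M, 22.1, 24.1 and 9.92 CPM at 6M, 7.86, 7.40 and 23.3 CPM at 12M and 9.48, 8.17 and 8.37 CPM at 18M. The high libraries were 3M-3, 6M-1, 6M-2 and 12M-3. Its terminal exon, chr17:12943042-12944032, was covered at 87.4 to 118 reads per base in those 4 libraries and at 18.8 to 31.8 in the other 8. Its other exons, in CPM of the reads outside terminal exons, stayed between 5.51 and 8.75. The exon overlaps 39 bases of an opposite-strand transcript of Tcp1.

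Npc2 was low in 3M-2, 12M-1, 18M-1 and 18M-2, at 22.3 to 25.2 CPM, and at 43.8 to 51.9 CPM in the rest. Its terminal exon, chr12:84754559-84757212, carried 5.18 to 10.5 reads per base in the low libraries and 44.4 to 67.0 in the others, while its other exons stayed between 27.3 and 33.6 CPM on the same scale. Soat1 was low in 3M-3, 12M-1 and 18M-1, at 29.7 to 32.0 CPM, against 43.1 to 53.5 CPM in the others. Its transcripts have terminal exons of different lengths, so reads rather than coverage are given for these. On the same scale as for Npc2, they held 18.8 to 19.7 CPM in the low libraries and 42.1 to 55.6 CPM in the others. Its other exons held 22.3 to 33.3 CPM. The libraries 12M-1 and 18M-1 were at the low level in all 3 genes, though most libraries were at the low level in Acat2. Both 3M-2 and 18M-2 were low in Acat2 and Npc2, and 3M-3 was low in Soat1 alone. In Scarb1 the terminal exons also split, at 19.7 to 27.6 CPM of the reads outside terminal exons in 3M-2, 6M-1, 12M-2 and 18M-2 against 50.7 to 105.3 in the rest, with 105.2 to 141.8 on its other exons. The fitted 18M level was 74.6% (47.1 to 118) for Npc2 and 80.8% (60.4 to 108) for Soat1.

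Leaving out the terminal exons moved the slope of Npc2 from -0.0281 to -0.0028 log2 per month, and that of Acat2 also moved. The slope of Soat1 changed little, from -0.0205 to -0.0222. With Acat2 taken whole the slope was -0.0610 ± 0.0309 (SE), a fitted 18M level of 53.0% with a 95% interval of 26.6 to 106 and an adjusted p of 0.322 in edgeR. Without the terminal exons, which was a choice made after seeing the data, it was -0.0239 ± 0.0083, a level of 78.0%. Over all members without those exons, edgeR called 0 of 30 (0.492% of all genes), with 24 estimates below 0 and 6 above. At the unadjusted p, 9 members were lower (11.9% of all genes), namely Abca1, Acat2, Dhcr7, Lss, Msmo1, Sc5d, Scap, Scarb1 and Soat1, and Cyp51 was higher. The spread over the 12 libraries of the other exons of Npc2 was 6.69% of the mean and of Soat1 12.4%, against 29.5 and 19.98% for the whole gene.

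**Figure D5:**
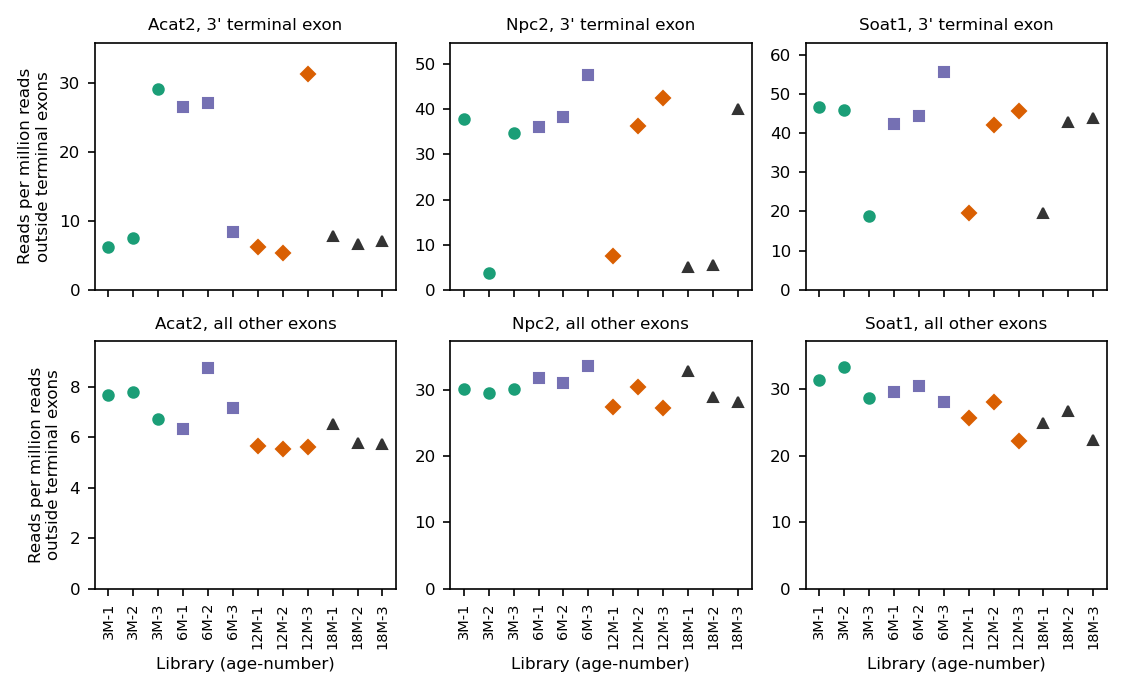
Reads, in CPM of the reads outside terminal exons, in the 3′ terminal exon (top) and in all other exons (bottom) of Acat2, Npc2 and Soat1, with a point per library and a shape and colour per age. The top panels split into 2 levels that hold libraries of several ages, and the bottom panels do not.

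By transcript, 0 of the 78 tested member transcripts were called for the slope in edgeR (0.00881% of all transcripts). At the unadjusted p there were 7 (6.99% of all transcripts), among them the RefSeq transcripts of Abca1 and Msmo1, both lower. DESeq2 called that of Abca1. The rest were assembled forms of Npc2, Pmvk, Scarb1 and Sqle, some higher and some lower.

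The promoters of the members were read for short motifs, since the SREBPs act there. RefSeq promoter windows of 250 bases before to 50 after the start (GRCm38.p6) were present for 24 of the 31 genes, in 33 windows. The sterol regulatory element TCACNCCAC was searched on both strands, and 2 genes held it, Hmgcs1 and Stard3, against 1.24% of all 32851 windows. The stretches are shown 5′ to 3′ along the gene, because these are the windows with the SREBP letters, which are in capitals as is the reverse complement of TGACGT in Hmgcs1. TGACGT was in 6.06% of the member windows, those of Hmgcs1 and Insig1, against 7.51% of all windows. They lie at chr13:119690196-119690255 and chr11:98358148-98358187, on the plus strand.

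Hmgcs1: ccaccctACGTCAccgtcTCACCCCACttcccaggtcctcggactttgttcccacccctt
Stard3: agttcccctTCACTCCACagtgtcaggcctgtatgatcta

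Their fitted 18M levels were 101 and 96.7% of 3M. The letters CCAAT, on both strands, were in 63.6% of the member windows and 37.4% of all windows, and GGGCGG in 78.8% against 35.7%.

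The E-box CACGTG, a palindrome, was in 27.3% of the member windows against 7.15% of all windows, in 8 genes. Of the 7 members with an unadjusted p of 0.05 or less that had a window, 6 held it, namely Abca1, Dhcr7, Insig1, Nceh1, Sc5d and Scap, and of the other 16 tested members 2 did, Hsd17b7 and Lipe. The Lipe window is that of the start of Lipe-201, not of Lipe-204, which held nearly all the reads. This motif was picked out after its matches were seen. Over all tested genes with a window, the E-box was in 10.9% of those lower at the unadjusted p, 8.99% of those higher and 10.5% of the rest. The sites of 4 of the 6, the members with an E-box whose unadjusted p was smallest, are shown with 12 bases before and after, 5′ to 3′ along the gene and the E-box in capitals. They lie at chr4:53160025-53160054 (minus strand), chr9:110333304-110333333 (plus), chr9:42264381-42264410 (minus) and chr7:143823223-143823252 (plus), in the order given.

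Abca1: gggccatgtctcCACGTGctttctgctgag
Scap: cgccgccgggagCACGTGtggagggcggcg
Sc5d: ctacgcggcgacCACGTGaccgccgcgacc
Dhcr7: cgctgtgatgaaCACGTGgcaaaaagcagc

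The first letter of the E-box was 147 bases before the start of its window's transcript in Abca1, 98 in Sc5d and 164 in Dhcr7. In Dhcr7 that is not the start of the most-read transcript. Scap has 2 windows that hold the site, which lies 40 bases before the start of its most-read transcript and 28 after the other. A match is only a run of letters and does not show that a factor binds there.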

How the data were processed

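Total RNA of mouse testis, 12 libraries with 3 per age, was sequenced as paired ends after ribosomal RNA removal with an unstranded kit. The authors aligned reads to mm10 with HISAT2 and assembled and quantified transcripts with StringTie, as the methods and the submitters' processing notes state. They deposited a table of estimated read counts and FPKM per transcript, and an assembly per library, with no scaling between libraries. The deposited estimated counts equalled coverage times length over a read length of 101, rounded up, in every library. Depth was 50924104 to 71803379 reads a library.

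Transcripts of a gene symbol with class codes =, c, j or o were summed per gene, for all genes, and 3.43 to 4.15% of reads had no symbol. edgeR 4.0.16 (R 4.3.3) fitted a quasi-likelihood model to the estimated counts with TMM scaling and filterByExpr, over all 12 libraries for the slope and any-age tests and over the libraries of both ages for single steps. Calls were made at a Benjamini-Hochberg adjusted p of 0.05 over all genes tested. CPM are scaled by the TMM factors. Alternatives were DESeq2 1.42.0, limma 3.58.1, other filters, scalings, class codes and RefSeq transcripts alone, a replicate block, and leaving out each library. Reads by exon came from the coverage in the deposited assemblies. The test was tried on simulated data. The members and lists were chosen with earlier results of these data known. Named with every library's value were members past the adjusted p and the 3 largest rises and falls of the slope estimate, with Scap and Sc5d added after their values were seen, as were the ranges of Npc2, Soat1 and Scarb1 by exon. Other cholesterol genes were named where called (Mbtps1, with every library's value), and Star, Nsdhl and Stard6 after their values were seen. Sequences came from GENCODE vM21 and RefSeq (GRCm38.p6). A further gene of the wider list is not reported here.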

Additional observations from a re-analysis of the deposited data

Results flagged for a closer look

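Signal was found in transcripts that the comparisons do not use. A pair of assembled transcripts on the strand opposite to Scarb1 held 12350 and 6884 reads over the 12 libraries and shared up to 75 exonic bases with it, and with an unstranded kit their strand rests on the assembly. A transcript within an intron of Srebf1 held 1205 reads. The 5 transcripts filed under Vps51 that contain every exonic base of Tm7sf2 held 26178 reads, against 42 under Tm7sf2 itself. Each is far above the limit of 3 reads that a count of 0 allows. The ages have 3 libraries each, too few to look for single outlying libraries.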

How the results depend on the processing

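Over 145 recomputations of the 7 counts of called members, 133 left the count at 0. DESeq2 called 3 members for the slope, 2 for any age, 1 for 3M against 18M, 1 for 6M against 12M and 1 member transcript for the slope. With the unadjusted p the counts were 8, 6, 4, 4 and 1 (12M against 18M) and, for transcripts, 7. Leaving out single libraries gave 0 to 2 called members for the slope, the 2 being Abca1 and Scap without 18M replicate 1 (1.06% of all genes), and 0 otherwise. The cause was not tested. DESeq2 also called more genes in all, 566 against 76 for the slope, 389 against 17 for any age and 266 against 12 for 3M against 18M. With all 12 libraries in the fit, 22 genes were called for 3M against 18M.

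The slope of Hmgcs1 was reversed without 3M replicate 3 (-4.2e-04 log2 per month) and without 18M replicate 1 (-6.5e-04), and over leaving out single libraries lay between -6.5e-04 and 0.0034, each far within its error. No other member followed in this way changed sign. Abca1 ranged from -0.0473 to -0.0289 and Scap from -0.0306 to -0.0208 over 22 settings, with adjusted p-values from 0.0065 to 0.285 and from 0.0019 to 0.451. Sc5d reached 0.0376 in DESeq2. RefSeq transcripts alone moved Dhcr7 to -0.0392 and Hmgcs1 to 0.0312, and leaving out terminal exons moved Nceh1 to -0.0627 and Stard4 to -0.0077.

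Across genes, libraries with the same number showed little shared deviation (r from -0.054 to 0.154 over 18 pairs, 1 above 0.1). For libraries with different numbers r ran from -0.158 to 0.096 over 36 pairs. An effect on few genes would not show in such an r, so what the numbers mean cannot be told from it. With the replicate block the counts of called members stayed at 0 in all 7 cases, and the genes called in all fell to 42 for the slope, 9 for any age, 5 for 3M against 18M and 0 for 6M against 12M.

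With 3 libraries an age, changes smaller than the intervals given cannot be seen. Acat2 and Npc2 had the widest intervals.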
